A study of Homo sapiens with 2 samples.

Results

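The 8 genes described here are the fusion partners ABL1 and BCR and 6 signalling proteins that work next to the BCR-ABL1 kinase: the adaptors CRKL, GRB2 and SHC1, the docking protein GAB2, the RAS exchange factor SOS1 and the ubiquitin ligase CBL. They were chosen by name, each through a microarray probe whose only listed gene symbol is that gene, and 8 of 8 were found among 18377 measured genes. The cells were K562, an established human leukaemia line that carries the BCR-ABL1 fusion. The comparison has 1 array in each of 2 groups: K562 cells grown with erythropoietin (EPO) and given imatinib, and K562 cells given imatinib whose label names no EPO, taken from the growth protocol as grown without it. Both received imatinib, an inhibitor of the BCR-ABL1 kinase, at 2 µM for 6 h. The sources used here state no dose or duration of EPO, and K562 cells without imatinib were not analysed here. Affymetrix Gene ST arrays, which probe the whole length of a transcript, were used.

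In chronic myeloid leukaemia, the head of BCR is joined to the tyrosine kinase ABL1, which is then constantly active. The kinase phosphorylates a tyrosine in its BCR part. GRB2 binds there, bringing GAB2, which recruits PI3-kinase and the phosphatase SHP2, and SOS1, which loads RAS with GTP. SHC1 is another phosphorylated adaptor that recruits GRB2, CRKL is a major substrate of the fusion kinase in leukaemic cells, and CBL is a substrate that also attaches ubiquitin to activated tyrosine kinases. The EPO receptor signals through JAK2 and uses several of the same adaptors, among them GRB2, SHC1, GAB2 and CBL. This is background on the proteins, whereas the arrays measured RNA.

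Each deposited value was read as a deviation, on a scale taken as log2, from a baseline for each probe that the sources used here do not state. It does not say how abundant a transcript was, so the 8 genes cannot be ordered by level, and the label K562 could not be checked against marker genes. The sources used here do not state the logarithm's base, so each fold below assumes base 2. A difference is the value of the array with EPO minus that of the array without EPO, and a gene was called at a difference of at least 1, which is 2-fold. With 1 array per group there are no replicates, no error and no test, so precision is limited by the number of arrays. Each of the 8 genes had 1 probe of its own, so no member's difference could be checked on a further probe of that gene alone. BCR was also listed on 2 probes shared with a pseudogene, and these had differences of -0.56 and -0.66, as described below. In bulk RNA, fewer expressing cells and less RNA per cell cannot be told apart.

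Promoter windows are shown for 3 genes, from RefSeq on GRCh38.p14, 250 bases before to 50 after a gene start. GRB2 had the largest difference of the 8 and BCR the smallest. The BCR window lies upstream of both BCR and the fusion gene, since the fusion is transcribed from the BCR promoter, and the ABL1 window precedes a start of ABL1 itself. Capitals mark the GC box GGGCGG and the CCAAT box CCAAT, searched on both strands (CCGCCC and ATTGG on the other).
GRB2 promoter, chr17:75405629-75405928 (- strand): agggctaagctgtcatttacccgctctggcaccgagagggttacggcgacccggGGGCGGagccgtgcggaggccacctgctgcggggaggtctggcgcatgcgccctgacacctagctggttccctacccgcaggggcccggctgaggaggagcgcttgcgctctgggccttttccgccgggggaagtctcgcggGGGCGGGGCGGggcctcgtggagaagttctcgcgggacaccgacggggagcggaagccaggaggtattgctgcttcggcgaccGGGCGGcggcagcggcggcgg
BCR promoter, chr22:23180259-23180558 (+ strand): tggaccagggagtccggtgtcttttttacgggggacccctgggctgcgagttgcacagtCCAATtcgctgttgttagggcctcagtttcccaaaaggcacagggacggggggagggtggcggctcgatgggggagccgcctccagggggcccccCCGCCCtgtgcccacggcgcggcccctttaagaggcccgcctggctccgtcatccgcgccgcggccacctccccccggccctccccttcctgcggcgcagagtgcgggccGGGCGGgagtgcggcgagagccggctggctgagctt
ABL1 promoter, chr9:130835004-130835303 (+ strand): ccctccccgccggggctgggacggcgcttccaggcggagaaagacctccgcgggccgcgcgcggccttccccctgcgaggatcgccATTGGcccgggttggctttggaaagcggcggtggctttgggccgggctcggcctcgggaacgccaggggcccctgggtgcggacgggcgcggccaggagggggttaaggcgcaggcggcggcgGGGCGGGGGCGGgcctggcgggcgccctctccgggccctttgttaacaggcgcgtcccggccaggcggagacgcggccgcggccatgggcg
The GRB2 window held 4 GC boxes, at positions -196, -54, -49 and 30 from the start, with those at -54 and -49 overlapping, and no CCAAT box. The BCR window and the ABL1 window each held 2 GC boxes and 1 CCAAT box. In all, 45% of 35116 promoter windows of this length held a GC box and 34.6% a CCAAT box. The table had windows for 7 of the 8 genes, 10 windows in all, and none for CBL. Of these 10 windows, 0 held the STAT5-type motif TTCNNNGAA (7.66% of all windows) and 0 held TATAAA (11.5%). CpG was dense in 7 of the 10, with an observed over expected ratio of at least 0.6, against 48.9% of all windows. The ratio was 0.922 for GRB2, 0.702 for BCR and 0.931 for ABL1. A match is a description of letters and not evidence of a bound factor.

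In the culture with EPO, all 8 genes lay slightly above the baseline, from 0.0038 to 0.15 with a median of 0.040. In the culture without EPO, all 8 lay below it, from -0.998 to -0.018 with a median of -0.39. Thus all 8 differences, each on the gene's own probe, were positive, from 0.022 to 1.14 with a median of 0.42. The median over all genes was -0.047. Of all genes, 38.8% were above the baseline with EPO and below it without EPO, and 45.4% had a difference above 0. GRB2 was the 1 of 8 genes past 2-fold higher, and 0 of 8 were 2-fold lower. Across all genes 6.19% were 2-fold higher and 0.898% were 2-fold lower, so 1 of 8 is no result about these genes as a group. At 1.5-fold, 3 of 8 were higher (GRB2, CBL and ABL1), against 18.1% of all genes, and 0 of 8 were lower, against 4.65%.

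**Figure D1:**
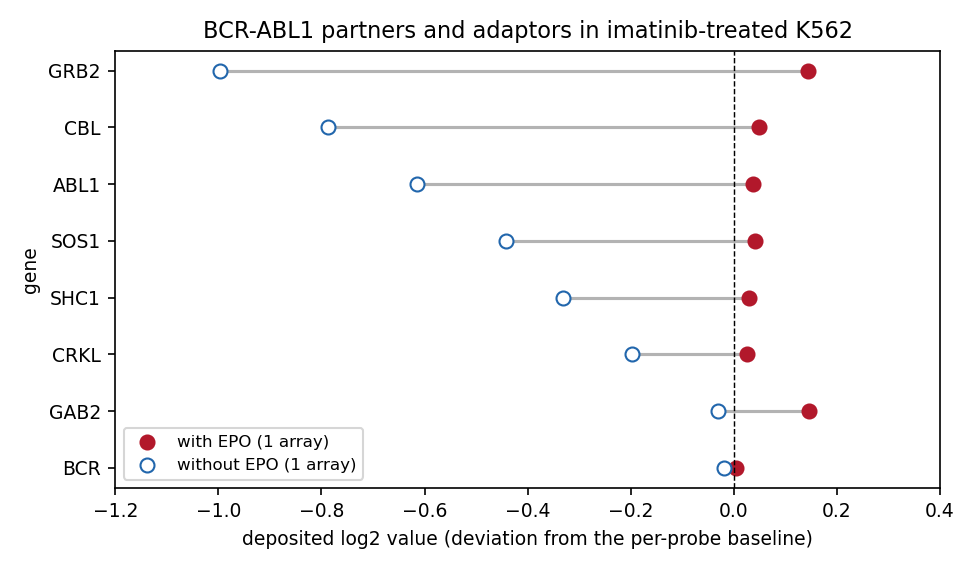
Deposited log2 values of the 8 genes, read as deviations from a baseline for each probe (horizontal axis, dashed line at 0), with filled points for the array with EPO and open points for the array without EPO. The filled points lie between 0.0038 and 0.15 and the open points spread from -0.998 to -0.018.

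The spread among the 8 genes lay mainly on the array without EPO. In 7 of 8 genes the value without EPO was further from the baseline than the value with EPO, with GAB2 the exception, and this held for 82.6% of all genes. The arrays differed in this respect as a whole: the SD across all probes was 0.134 with EPO and 0.431 without EPO. Whether that difference between the arrays had a part in the values of the 8 genes was not tested.

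Of the fusion partners, ABL1 differed more than BCR. ABL1, the tyrosine kinase that imatinib binds, stood at 0.038 with EPO and -0.62 without EPO, a difference of 0.65 (1.57-fold higher) that exceeded those of 84.2% of all genes. BCR stood at 0.0038 with EPO and -0.018 without EPO, a difference of 0.022 that exceeded those of 56.5% of all genes. On the probe of each gene alone, ABL1 was therefore lower without EPO and BCR was nearly level between the arrays. The 2 shared probes that also list BCR, described next, were higher without EPO. Neither probe separates the fusion from the normal gene: 1 transcript record was listed under both the ABL1 probe (9 records) and the BCR probe (3 records). These values are therefore sums over normal and fused transcripts in unknown proportion.

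BCR was also listed on 2 further probes, together with its pseudogene BCRP2, and these were left out of the gene values because they name several genes. The first stood at -0.17 with EPO and 0.39 without EPO, a difference of -0.56. The second stood at -0.15 with EPO and 0.51 without EPO, a difference of -0.66. Both went the opposite way from the probe of BCR alone, and with the 3 probes averaged BCR had a difference of -0.40. Transcripts of BCR and of the pseudogene cannot be told apart on the shared probes.

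GRB2, whose SH2 domain binds phosphotyrosine and whose SH3 domains hold SOS1 and GAB2, had the largest difference of the 8. It stood at 0.14 with EPO and -0.998 without EPO, a difference of 1.14 (2.21-fold higher). The value without EPO was among the low ones of that array, above those of 3.35% of all genes, and 650 genes had a larger difference. GRB2 was just short of 2-fold, at 0.995, when the median difference of genes with CpG-rich promoters was subtracted, and stood at 0.67 with the median of cellular machinery genes subtracted.

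The other adaptors differed less. SHC1 stood at 0.030 with EPO and -0.33 without EPO, a difference of 0.36 (1.28-fold higher). CRKL, an SH2 and SH3 adaptor whose tyrosine phosphorylation is widely used as a readout of BCR-ABL1 activity, stood at 0.027 with EPO and -0.20 without EPO, a difference of 0.22 (1.17-fold higher). Both lay above the median of all genes and below that of the machinery genes.

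Between the proteins that GRB2 carries, the exchange factor SOS1 differed more than the docking protein GAB2. SOS1 stood at 0.041 with EPO and -0.44 without EPO, a difference of 0.48 (1.40-fold higher). GAB2 stood at 0.15 with EPO and -0.030 without EPO, a difference of 0.18 (1.13-fold higher), and was the 1 member whose larger deviation lay on the array with EPO.

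CBL, the ubiquitin ligase that marks active tyrosine kinases for degradation, had the second largest difference. It stood at 0.050 with EPO and -0.79 without EPO, a difference of 0.84 (1.79-fold higher) that exceeded those of 89.9% of all genes. In order of difference the 8 genes were GRB2, CBL, ABL1, SOS1, SHC1, CRKL, GAB2 and BCR. None of the 8 genes can be called different from another, adjacent in this order or not, since no replicate gives a spread. As a rough guide to disagreement between probes, the 685 genes with several probes had a median gap of 0.18 between their highest and lowest probe differences. The 95th percentile of this gap was 1.16. These probes were read on the same 2 arrays, so the gap holds no error between cultures or arrays, and none of the 8 members is among these genes. In 36 of these genes the first-listed probe was 2-fold higher, and in 11 of the 36 every other probe was too.

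**Figure D2:**
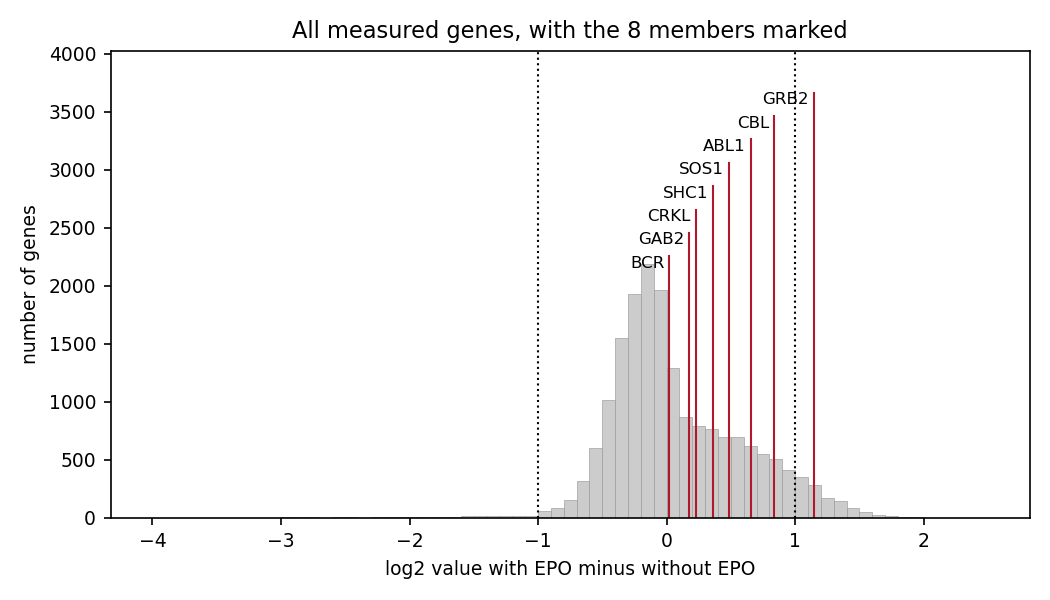
Histogram of the log2 difference, with EPO minus without EPO, over 18377 genes (vertical axis, number of genes), with lines at the 8 genes and dotted lines at 2-fold. The genes run from BCR at 0.022 to GRB2 at 1.14, all to the right of the median of all genes at -0.047.

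Over the whole table, the median difference varied with the class of gene. Whether this had a part in the values above was not tested. Genes of cellular machinery, such as proteasome, mitochondrial ribosome, respiratory chain and spliceosome subunits (274 genes here, by symbol), had a median difference of 0.48. Families silent in most tissues, such as olfactory receptors (460 genes), had a median of -0.32. Genes with a CpG-rich promoter window (10277 genes) had a median of 0.15, and genes whose windows were all CpG-poor (3933 genes) had a median of -0.19. Against the machinery genes, 4 of the 8 members lay above the median (GRB2, CBL, ABL1 and SOS1) and 4 below it, and all 8 lay inside their central range of -0.52 to 1.39. With the machinery median subtracted, GRB2 (0.67), CBL (0.36), ABL1 (0.18) and SOS1 (0.0052) kept a positive difference, and SHC1 (-0.12), CRKL (-0.25), GAB2 (-0.30) and BCR (-0.46) turned negative. Of the 8, 0 were then 2-fold higher or lower, against 0.680% and 6.57% of all genes. With the CpG-rich median subtracted, 0 of 8 were 2-fold higher and 0 lower, against 3.46% and 1.40%. With the median of the silent families subtracted, 2 of 8 were higher, GRB2 (1.47) and CBL (1.16), and 0 lower, against 15.0% and 0.571%. Over all genes, 1138 were 2-fold higher and 165 lower as deposited, 636 higher and 257 lower with the CpG-rich median subtracted, and 125 higher and 1207 lower with the machinery median subtracted.

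Most members had a larger difference than their closest relatives in the genome. Of 11 measured pairs of a member and a paralog, the member had the larger difference in 10, with GAB2 against GAB3 the exception. SHC1, GAB2 and CBL each enter several pairs, so the pairs are not separate observations, and CRKL had no measured paralog. All 8 members also lay above the median of all genes, so this count is no result about paralogs in particular. The widest gap was between GRB2 and its haematopoietic relative GRAP, which stood at -0.23 with EPO and 0.64 without EPO, a difference of -0.87. The relatives SHC2, SHC3 and SHC4 of SHC1, known best from neural and other non-blood tissues, had differences of -0.76, -0.52 and -0.24. The kinase ABL2 stood at 0.048 against 0.65 for ABL1, and the BCR relative ABR at -0.11. The relatives of CBL were CBLB at 0.41 and CBLC, which is mainly epithelial, at -0.23. SOS2 at 0.42 lay close to SOS1 at 0.48, and the GAB2 relatives GAB1 and GAB3 stood at 0.093 and 0.42. All 11 paralogs were within 2-fold, with a median of -0.11, while 6.19% of all genes were 2-fold higher and 0.898% were 2-fold lower. Each pair compares differences, not levels. The member's lead was small for SOS1 over SOS2 (0.064), GAB2 over GAB1 (0.082) and BCR over ABR (0.13). Each of these leads is less than the median gap of 0.18 between probes of the same gene. With the shared BCR probes averaged in, BCR (-0.40) lay below ABR (-0.11).

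The genes beside ABL1 and BCR on their chromosomes had differences in both directions. ABL1 lies on chromosome 9 and BCR on chromosome 22, and K562 is known to carry extra copies of the fusion and of flanking segments. Of the 10 measured protein-coding genes on each side of ABL1 in RefSeq order, 12 of 20 had a difference above 0, against 45.4% of all genes, with a median of 0.20 and a range of -0.73 to 1.01. On one side stood EXOSC2, an RNA exosome subunit, with 0.33 with EPO and -0.43 without EPO, a difference of 0.76. On the other stood QRFP, a neuropeptide gene, with -0.18 with EPO and 0.32 without EPO, a difference of -0.50. FUBP3, a nucleic acid binding protein, was the 1 neighbour past 2-fold, at 1.01 (2.01-fold higher). Across all genes 6.19% were 2-fold higher and 0.898% were 2-fold lower, so 1 of 20 is no result about these neighbours. Of the 20 neighbours of BCR, 7 had a difference above 0, against 45.4% of all genes, with a median of -0.19 and a range of -0.98 to 0.45. None of them, 0 of 20, was past 2-fold, against the same shares of all genes. The nearest were the small GTPase RAB36, at -0.069 with EPO and 0.91 without EPO (a difference of -0.98), and the surrogate light chain gene IGLL1, at -0.20 with EPO and 0.55 without EPO (a difference of -0.75). Both cultures are of one line, and copy number was not measured.

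**Figure D3:**
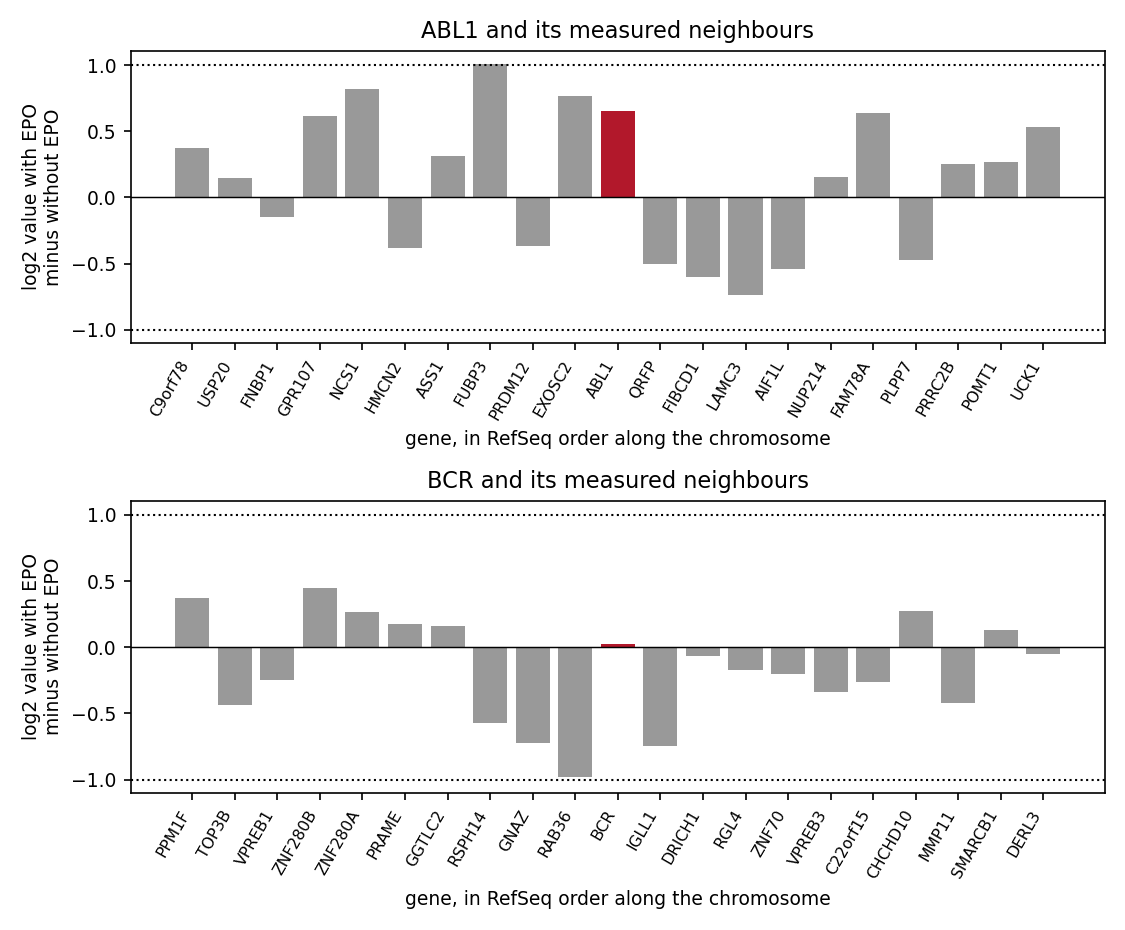
Log2 difference, with EPO minus without EPO (vertical axis), of ABL1 and BCR (red) and of the 10 measured protein-coding genes on each side (grey) in RefSeq order, with dotted lines at 2-fold. EXOSC2 at 0.76 and QRFP at -0.50 flank ABL1, and RAB36 at -0.98 and IGLL1 at -0.75 flank BCR.

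Beyond the 8 genes, 7 lists of genes from the same signalling network were examined, of which 70 of 85 genes were measured and the other 15 were not analysed here. The 70 genes had a median difference of 0.20, with 45 above 0, against 45.4% of all genes. Of them, 6 were 2-fold higher with EPO and 0 lower, against 6.19% and 0.898% of all genes. The 6 were the adaptors NCK1 and NCK2, the GTPase RAC1, the phosphatase PTPN11 and the kinases LYN and YES1. With the machinery median subtracted, 0 of the 70 were 2-fold higher and 6 lower, against 0.680% and 6.57% of all genes.

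Among cytoskeletal partners and proteins linked to CRK adaptors, 3 of 16 were 2-fold higher and 0 lower, against 6.19% and 0.898% of all genes, with a list median of 0.24 (-0.24 with the machinery median subtracted). RAC1, a GTPase of the actin cytoskeleton, stood at 0.054 with EPO and -1.16 without EPO, a difference of 1.22 (2.32-fold higher). NCK2 and NCK1, SH2 and SH3 adaptors that link receptors to actin, had differences of 1.17 (2.24-fold higher) and 1.04 (2.06-fold higher). These adaptors therefore had differences similar in size to that of GRB2.

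The list of phosphatases and turnover factors had 1 of 12 genes 2-fold higher and 0 lower, against 6.19% and 0.898% of all genes, and a median of 0.12 (-0.36 with the machinery median subtracted). PTPN11, which encodes SHP2, the phosphatase that docks on GAB2, stood at 0.24 with EPO and -0.95 without EPO, a difference of 1.19 (2.28-fold higher). USP9X, a deubiquitinase, followed at 0.77, and CD2AP, a CBL-binding scaffold, at 0.74.

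SRC family kinases split in both directions, so that the list's median and mean differed in sign (-0.12 and 0.28). LYN stood at 0.024 with EPO and -1.18 without EPO, a difference of 1.21 (2.31-fold higher). It is a kinase of blood cells active in CML cells and downstream of the EPO receptor. YES1 had a difference of 1.17 (2.24-fold higher) and FYN one of 0.92. LYN and YES1 were the 2 of 7 genes past 2-fold, against 6.19% of all genes 2-fold higher, while SRC, FGR, LCK and BLK, named after their values were seen, lay between -0.44 and -0.12.

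The branches below the adaptors stayed within 2-fold. In the PI3K-AKT branch 0 of 11 genes were past 2-fold, with 10 of 11 above 0, against 45.4% of all genes, and a median of 0.27 (-0.21 with the machinery median subtracted). Its largest differences were 0.88 for PIK3R3 and 0.85 for PIK3R1, regulatory subunits of PI3-kinase, and 0.83 for the catalytic subunit PIK3CB. In the RAS-ERK cascade 0 of 7 measured genes were past 2-fold, with a median of 0.20 (-0.27 with the machinery median subtracted). The scaffold KSR1 stood at 0.62, the GTPase HRAS at -0.60 and the kinase ARAF at 0.47. Of the chaperones that keep BCR-ABL1 and other kinases folded, 0 of 6 were past 2-fold, with a median of 0.52 (0.041 with the machinery median subtracted). PTGES3, the HSP90 co-chaperone p23, had a difference of 0.81, the co-chaperone STIP1 one of 0.72 and HSP90AA1 one of 0.63. Of the 6, 5 lay above 0, against 45.4% of all genes, and CDC37 went the other way at -0.58.

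**Figure D4:**
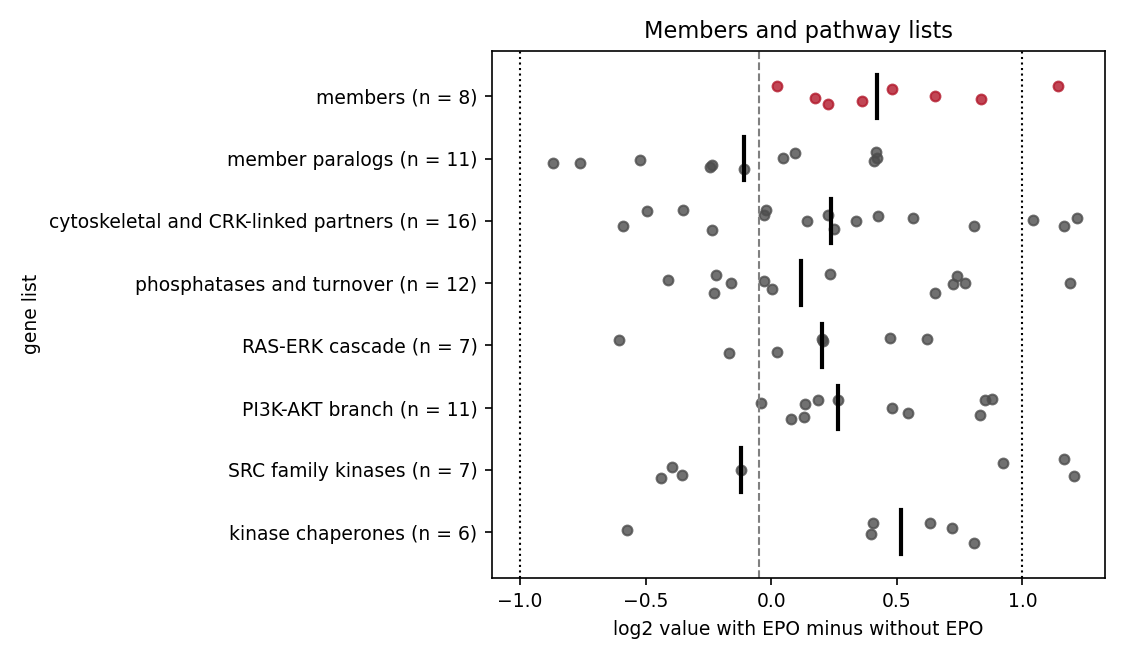
Log2 difference, with EPO minus without EPO (horizontal axis), of each measured gene of the 8 members (red) and of the 7 pathway lists (grey), with list medians as black bars, the median of all genes as a dashed line and 2-fold as dotted lines. List medians run from -0.12 for SRC family kinases to 0.52 for kinase chaperones, with 0.42 for the members.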

How the data were processed

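Total RNA was labelled as sense-strand cDNA for Affymetrix arrays, per the labels' protocols. The deposited values (28869 probes, 2 arrays), read as log2, were taken as deviations from a baseline for each probe, which the sources used here do not state. In 631 probes (2.19%) the 2 arrays held opposite values within 1e-05. For the other probes the baseline was therefore not the mean of these 2 arrays. The sources used here do not give the background correction, summarisation, normalization or software. Probes were named through the platform annotation and matched by Entrez ID, since some aliases of the members are symbols of other genes, to RefSeq (GRCh38.p14), from which symbols and gene order were taken. Of 19310 probes with 1 gene symbol, 19279 matched. Another 1752 probes named several genes and 7807 had none listed, and neither entered gene values. Probes of a gene were averaged, giving 18377 genes, with no filter on dim probes. Differences were computed with EPO minus without EPO in Python 3.11.15, NumPy 2.4.6 and pandas 2.3.3, and the calculation was tested on simulated data. No test was possible with 1 array per group.

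The members and lists were chosen with earlier results of these data known. Named genes are the 8 members, their paralogs, the 3 largest differences in each list, the nearest neighbours of ABL1 and BCR, and every listed or neighbouring gene past 2-fold. SRC, FGR, LCK, BLK and CDC37 were named beyond this rule, after their values were seen. No gene was named for a similar pattern, since 2 arrays give 1 difference per gene. Alternatives were other scalings, probe rules, a 1.5-fold threshold and the mean in place of the median. The CpG-rich scaling was chosen after seeing the data.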

Additional observations from a re-analysis of the deposited data

How the results depend on the processing

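The scaling between the arrays changed several counts. With the machinery median subtracted, the median difference of the 8 genes was -0.056 and 0 of 8 were 2-fold higher. Of the 70 pathway genes, 0 were then 2-fold higher and 6 lower, against 0.680% and 6.57% of all genes. With the silent-family median subtracted, 2 of 8 members and 16 of 70 pathway genes were 2-fold higher, against 15.0% of all genes. With the CpG-rich median subtracted, 0 of 8 were 2-fold higher, against 3.46% of all genes. In that scaling 1 of 70 pathway genes was 2-fold lower, against 1.40%. At 1.5-fold, 3 of 8 members and 19 of 70 pathway genes were higher, against 18.1% of all genes. At the same threshold 4 of 70 pathway genes were lower, against 4.65%. Subtracting the median of all genes moved none of these counts. Each member has 1 probe of its own, so the probe rules could not change a member's value, except that the shared probes turned BCR to -0.40. No paired analysis was possible because each group has 1 array and the labels give no replicate numbers. Leaving out a replicate was not possible with 1 array per group. Another background correction, quantile normalization and a filter on dim probes were not run, since the values hold no intensities or levels.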
